A study of Homo sapiens with 59 samples.

Results

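The 73 autosomal genes of the cytosolic ribosomal proteins, of 20007 protein-coding genes in all, were followed across histone marks in NCI-H661 cells, an established line of human lung large cell carcinoma. Members were the autosomal protein-coding genes of GENCODE 44 whose symbol is RPL or RPS followed by a number, with or without a final A or X, and RPLP0, RPLP1, RPLP2 and RPSA. They comprise 43 genes of the large subunit and 30 of the small subunit. Each gene was read in its promoter, the 3001 bp window that reaches 1500 bp to either side of the transcription start site (TSS) of its canonical transcript. The window of 16 members also holds the TSS of another protein-coding gene, for example VPS52 at RPS18 and LIAS at RPL9, and marks there cannot be assigned to a single gene.

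Cytosolic ribosomal proteins join the ribosomal RNAs to form the translating ribosome, and their genes are among the most actively transcribed of growing cells. Their transcripts typically begin with a C and a run of pyrimidines, the 5′ terminal oligopyrimidine (TOP) motif, through which mTOR signaling controls their translation. H3K4me3 and H3K27ac mark active promoters. H2AK119ub is placed by Polycomb repressive complex 1 and H3K27me3 by Polycomb repressive complex 2, of which SUZ12 is a core subunit.

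In the knockdown experiment, cells carried doxycycline-inducible hairpins against DPPA2 (shDPPA2), DPPA4 (shDPPA4) or both (shDPPA2+4), embryonic regulators of chromatin that this line expresses. For 7 days they were kept in water (H2O) or in doxycycline (DOX) at 2 µg/ml. The lines were bulk populations sorted for fluorescent reporters, not clones, with 1 hairpin per gene, and shDPPA2+4 was derived from shDPPA2 cells. A control hairpin was not analysed here, so effects of doxycycline itself and of the knockdown cannot be told apart. For the inhibitor, cells without a hairpin were kept for 1 day in DMSO or in A-485 at 10 µM, a compound that blocks the catalytic activity of the acetyltransferases CBP and p300. Of 59 samples, 51 had a list of peaks and 8 were inputs. Each knockdown group held 2 libraries for each of H3K4me3, H2AK119ub and H3K27me3, and each inhibitor group held 2 for H3K27ac and H2AK119ub and 3 for H3K27me3, with 1 SUZ12 library in DMSO.

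Peak reads per library ranged from 8394879 to 19379794 for H3K4me3, from 1330926 to 4136521 for H2AK119ub in the knockdown lines and from 603895 to 5647079 for H3K27ac. For H3K27me3 in the knockdown lines they ranged from 1085365 to 10545826, and the SUZ12 library held 510507. In every pair of H3K4me3 libraries the DOX library held more peak reads than its H2O partner, by 1.05 to 1.76 times. The 3 H2AK119ub DOX libraries of replicate 3 stood apart, with 31.9 to 49.3% of H3K4me3 promoters (defined with the marks) under the mark. The share was 61.6 to 76.1% in the other 9 knockdown libraries. These 3 held 4136521 (shDPPA2), 3653434 (shDPPA4) and 3871308 (shDPPA2+4) peak reads, the most of all knockdown H2AK119ub libraries. The parental DMSO library of replicate 3 marked 45.6%, against 26.6 to 38.7% in the other 3 parental libraries. Results that rest on them are given with and without them. Both H3K27ac lists of replicate 4 had been called against the input of the other treatment, judged by input counts that were equal at all peaks with shared borders. The promoters of the epithelial genes KRT18, EPCAM and CDH1 carried H3K4me3 in 12 of 12 libraries and that of KRT8 in 0. Those of the blood and endothelial genes PTPRC, CD3E, PECAM1 and CDH5 carried it in 0. The promoters of DPPA2 and DPPA4 carried it in all 12, and their transcripts were not measured here.

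The start sites shared a sequence feature that the choice of members did not use. Of 73 members, 59 (80.8%) began with a C, against 10.7% of all 20007 promoters. In 55 (75.3%) this C opened a run of at least 5 pyrimidines, against 4.58% of all promoters. The share was 72.1% of large subunit genes and 80.0% of small subunit genes, 41.2% of translation factor genes and 6.41% of mitochondrial ribosomal protein genes. TTCCGG, searched on both strands from 250 bases before to 50 after the start, occurred in 41 members (56.2%), in 29.8% of the promoters with H3K4me3 in all 6 H2O libraries and in 22.8% of all promoters. It also occurred in 60.3% of mitochondrial ribosomal protein genes, 58.1% of ribosome biogenesis genes and 26 of 51 translation factor genes. TATAAA occurred in 6 members (8.22%) and in 9.72% of all promoters. TTCCGG and TATAAA cannot overlap each other, but TTCCGG can overlap the pyrimidine run, as at RPL37, and a match is only a match of letters.

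The sequences around the start of 6 members are shown, chosen by values described later. RPL10A, RPL13 and RPL28 had the greatest mean length under H2AK119ub peaks with H2O. Of the 13 members marked in no knockdown library, RPL37, RPL21 and RPS14 had the highest H3K4me3 read density with H2O. The sequences run from 40 bases before the first transcribed base to 15 after it (GENCODE 44 starts, GRCh38). Capitals mark the first base or the run of pyrimidines that it opens. RPL10A, RPL13 and RPL28 carried H2AK119ub in all 6 H2O libraries. RPL37, RPL21 and RPS14 carried it in none of the 12 knockdown libraries. RPL37 had 979 bp under H2AK119ub peaks in the parental DMSO library of replicate 4.
RPL10A, chr6:35468361-35468416, plus strand: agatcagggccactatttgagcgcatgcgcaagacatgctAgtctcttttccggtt
RPL13, chr16:89560642-89560697, plus strand: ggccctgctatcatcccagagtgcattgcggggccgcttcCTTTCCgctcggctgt
RPL28, chr19:55385892-55385947, plus strand: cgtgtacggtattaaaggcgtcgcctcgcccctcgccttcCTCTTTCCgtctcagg
RPL37, chr5:40835207-40835262, minus strand: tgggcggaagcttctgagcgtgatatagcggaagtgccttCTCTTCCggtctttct
RPL21, chr13:27251518-27251573, plus strand: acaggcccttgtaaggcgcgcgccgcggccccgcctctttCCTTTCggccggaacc
RPS14, chr5:150449724-150449779, minus strand: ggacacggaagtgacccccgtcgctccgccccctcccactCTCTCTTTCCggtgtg
The TOP run was present in both sets, in 7 of the 10 members with H2AK119ub in all H2O libraries and in 12 of the 13 members with none. At RPL10A the annotated start was an A, and RPL10A thus had no run at its first base.

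The first question was which marks these promoters carried without knockdown. H3K4me3 marked all 73 members in all 12 libraries, where marked means at least 300 bp of the window under peaks, against 70.1% ± 0.285 (SD, n = 6 H2O libraries) of all promoters. In the following, H3K4me3 promoters are the 13337 autosomal promoters marked in all 6 H2O libraries, members included. H3K27ac marked all 73 members in both DMSO libraries, against 84.5% and 94.4% of H3K4me3 promoters. H3K27me3 was nearly absent from the members. It marked 0.913% ± 1.66 (SD, n = 6) of them with H2O and 0.685% ± 1.15 (n = 6) with DOX, against 13.5% ± 1.69 and 12.7% ± 2.01 of H3K4me3 promoters. SUZ12 marked 2 of 73 members (2.74%) and 13.7% of H3K4me3 promoters in its single library, so its spread between libraries is unknown.

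The members with any Polycomb repressive complex 2 signal were few. Over 18 H3K27me3 libraries, 69 of 73 members were never marked. RPS12, a protein of the small subunit, was marked in 4 libraries, all of replicate 1, with 1132 and 932 bp in shDPPA2 (H2O and DOX), 732 bp in shDPPA4 (H2O) and 432 bp in shDPPA2+4 (DOX). RPL38, which in mice is needed for the translation of a subset of Hox mRNAs, was marked in 2 libraries, with 423 bp in shDPPA4 H2O replicate 1 and 923 bp in shDPPA2+4 DOX replicate 1. Neither gene was marked in any library of replicate 3. With H2O, replicate 3 held 1085365 to 2227464 H3K27me3 peak reads, against 5951041 to 10545826 in replicate 1. With DOX the ranges overlapped, at 5989134 to 10345651 and 7779470 to 10431794. The part of depth in these calls was not tested. SUZ12 peaks covered 423 bp at RPL38 and 1049 bp at RPS16. RPL36 (300 bp in shDPPA4 H2O replicate 1) and RPL37 (500 bp with A-485, replicate 4) were marked in a single library each. None of these H3K27me3 calls recurred in another replicate of the same group.

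H3K4me3 at ribosomal protein genes reached far into the gene. The domain, the peak with the largest overlap with the window, had a median width of 3833 bp over the 73 members, against 2867 bp over H3K4me3 promoters (mean of 6 H2O libraries for each gene). Upstream of the TSS the medians were alike, at 1243 and 1172 bp. Downstream the domain reached 2549 bp at the median member and 1593 bp at the median H3K4me3 promoter. At 2000 bp downstream of the TSS, 79.7% of members lay under a peak (64.4 to 89.0% over 6 H2O libraries), against 30.6% of H3K4me3 promoters (28.6 to 34.2%), and the ranges did not overlap. At 2000 bp upstream, the values were 13.5% and 16.9%. Mitochondrial ribosomal protein genes reached 1452 bp downstream, translation factor genes 2038 bp and ribosome biogenesis genes 1631.5 bp. Their median widths were 2683, 3833 and 3083 bp, so translation factor genes had domains as wide as those of the members.

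**Figure D1:**
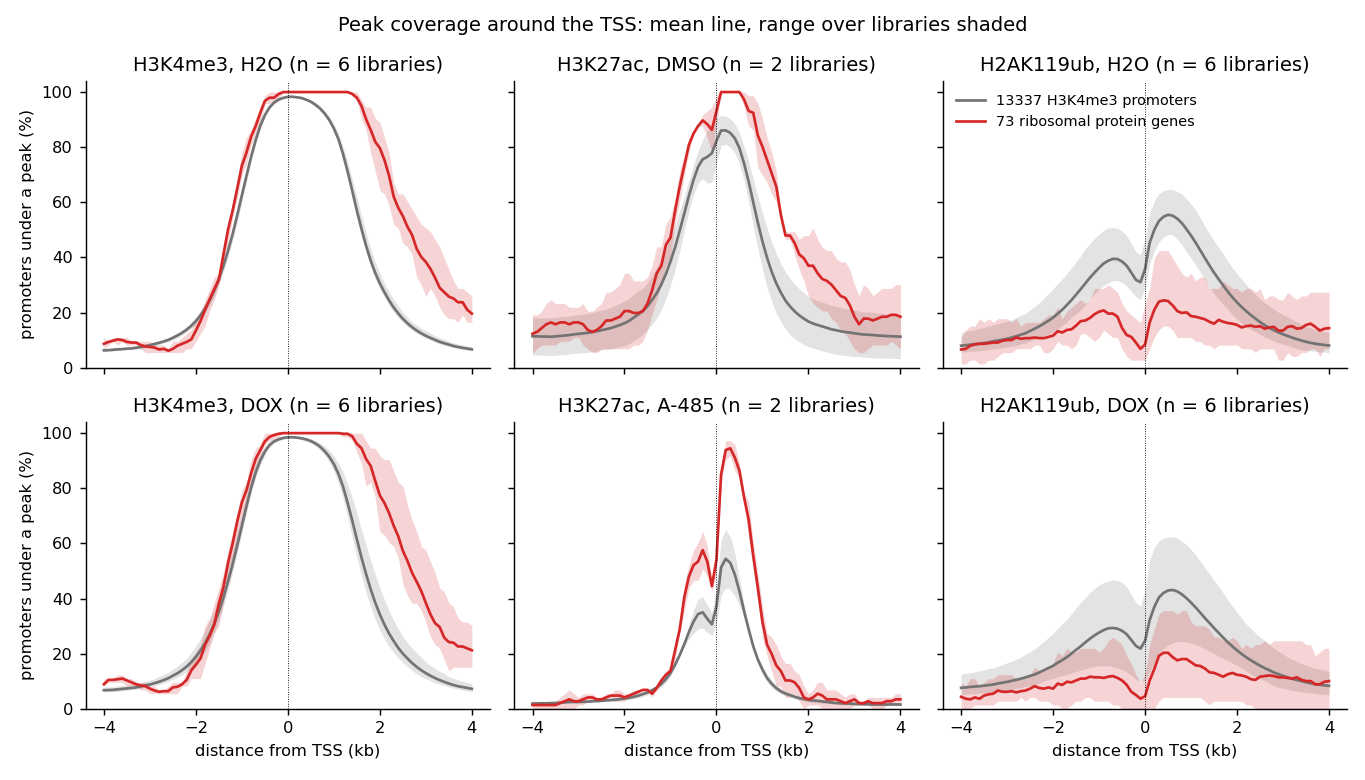
Share of promoters under a peak (y axis, %) by distance from the TSS (x axis, kb, positive into the gene) for 73 ribosomal protein genes (red) and 13337 H3K4me3 promoters (gray). Lines are means and shading is the range over the libraries of the group. At 2 kb into the gene the red H3K4me3 curve with H2O stood at 79.7% and the gray one at 30.6%, whereas for H2AK119ub red lay below gray near the TSS.

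Domain width varied widely among members. RPS16 (mean 7967 bp with H2O), RPS18 (7733 bp) and RPS2 (7617 bp), all of the small subunit, had the widest. RPS27 (2500 bp), RPL34 (2550 bp) and RPL29 (2567 bp) had the narrowest. The width at RPS16 ranged from 6800 to 10500 bp over the 6 H2O libraries and that at RPS27 from 2200 to 3000 bp, so the extremes did not overlap. The read density, in ChIP reads per kb of domain scaled to CPM of peak reads, was highest at RPL37 (lowest 32.3, median 39.1, highest 45.0 over 6 H2O libraries), followed by RPS21 (33.0, 34.7 and 38.8) and RPS3 (24.2, 31.7 and 33.9). RPL17 (10.9, 13.6 and 15.4), RPL23A (14.7, 16.7 and 18.5) and RPS7 (15.3, 16.1 and 20.0) had the lowest. The window of RPL17 also holds the TSS of RPL17-C18orf32. The median density over members was 22.0, close to the 19.9 over H3K4me3 promoters. At RPS16 the input was dense as well, at 20.9 input reads per kb of the H3K4me3 domain against a median of 6.03 over members, the highest of 73. RPS16 also had the widest H3K27ac domain, 22050 bp on average in DMSO against a median of 2400 bp.

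The second comparison asked whether H3K4me3 at these genes changed with knockdown of DPPA2 and DPPA4. Counts of ChIP reads in merged regions were fitted with edgeR (quasi-likelihood test, replicate number as a block), and a promoter was called where its adjusted p was under 0.05 and its log2 fold change was 0.5 or more in either direction. None of the 73 members was called over the 3 lines, where 0.0649% of 13868 promoters tested were. None was called in any single line, nor in the difference between any pair of lines, where 0.0% of promoters were called as well. At an unadjusted p under 0.05 the counts of members were 41 in shDPPA2, 12 in shDPPA4 and 33 in shDPPA2+4 (56.2%, 16.4% and 45.2%), against 16.4%, 7.17% and 12.4% of all promoters tested. Over the 3 lines the count was 54 (74.0%), against 29.2% of all promoters. Without the replicate block these counts were 18, 3, 13 and 42, against 3.30%, 1.57%, 2.70% and 10.8% of all promoters. For the difference of shDPPA4 against shDPPA2, the fit with the block gave 2 members (2.74%), against 1.82% of all promoters. For shDPPA2+4 against shDPPA2 and against shDPPA4 it gave 0, against 1.59% and 1.77%. Without the block the count was 0 for each difference. DESeq2 called none over the 3 lines or in any line.

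Small differences in 1 direction were nevertheless shared by the genes. The log2 fold change over the 3 lines was below 0 at all 73 members, from -0.28 at RPS16 to -0.00056 at the other end, with a median of -0.11 against 0.00 over all promoters tested. By a rule chosen after these values were seen, 32 of 73 members (43.8%) were lower at an adjusted p under 0.05 of any size, where 5.45% of promoters were. They were 18 of 43 large subunit genes and 14 of 30 small subunit genes, with medians of -0.10 and -0.11. No member was higher. The median of the members was -0.13 in shDPPA2, -0.08 in shDPPA4 and -0.11 in shDPPA2+4. Within single pairs of libraries it lay between -0.13 and -0.04.

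The clearest single case without overlap was RPL37, a zinc-binding protein of the large subunit. Its region held 163, 166 and 174 CPM (counts scaled to library size; lowest, median and highest of 6 H2O libraries) and 134, 148 and 159 with DOX (log2 fold change -0.20, SE 0.03, edgeR adjusted p = 0.00392, lower in 6 of 6 pairs). Each DOX library thus lay below each H2O library. RPS16 had the largest difference, with 215, 244 and 261 CPM with H2O and 169, 202 and 229 with DOX (log2 fold change -0.28, SE 0.04, edgeR adjusted p = 0.0038, 6 of 6 pairs). Its groups overlapped. RPL18 held 94.8, 99.5 and 106 with H2O and 82.9, 90.8 and 94.5 with DOX (-0.15, SE 0.03, edgeR adjusted p = 0.00739), again without overlap.

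RPL23, RPL3 and RPS18 followed by p-value. RPL3, which lies close to the peptidyl transferase center, held 110, 116 and 123 CPM with H2O and 103, 105 and 106 with DOX (log2 fold change -0.16, SE 0.03, edgeR adjusted p = 0.0087). These groups did not overlap either. RPL23 and RPS18, with fold changes of -0.14 and -0.15 on the log2 scale, had overlapping groups. RPL5, which with RPL11 and 5S RNA binds and inhibits MDM2, held 89.7, 95.3 and 102 with H2O and 77.7, 85.8 and 88.5 with DOX (-0.19, SE 0.04, edgeR adjusted p = 0.0102). In all, the 6 DOX libraries lay below the 6 H2O libraries at 9 members (RPL5, RPS3A, RPL37, RPS14, RPS12, RPS2, RPS19, RPL18 and RPL3), where 0.786% of promoters tested had this order.

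**Figure D2:**
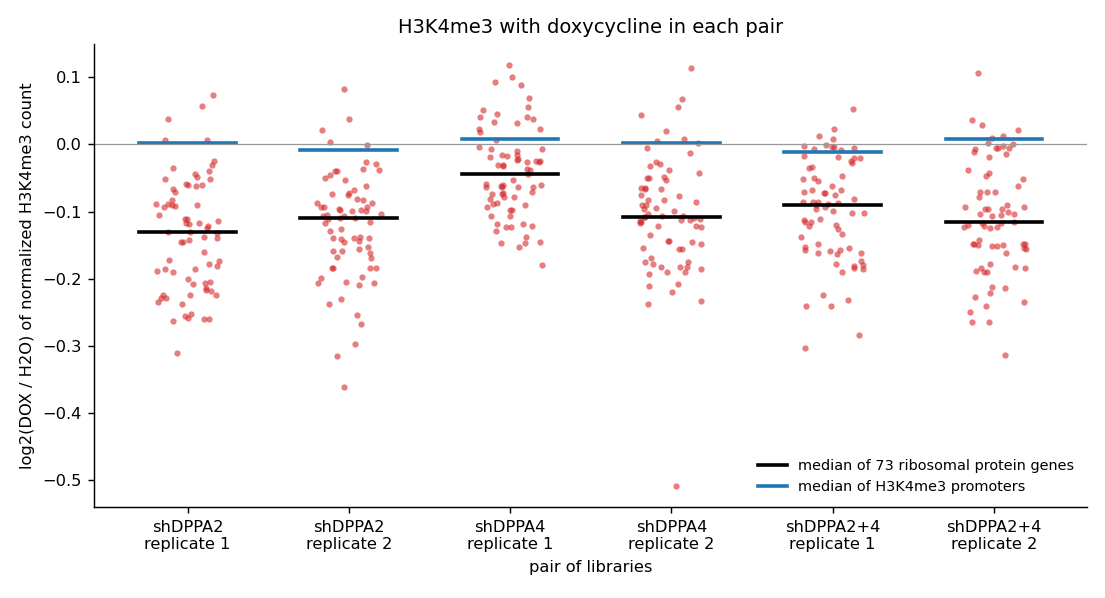
Log2 ratio of DOX to H2O of the normalized H3K4me3 count (y axis) in each of 6 pairs of libraries (x axis). Points are the 73 ribosomal protein genes, the black bar is their median and the blue bar is the median of H3K4me3 promoters. The black bars sit between -0.13 and -0.04 and the blue ones close to 0.

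The fold change of H3K4me3 promoters varied with read level. Over 10 equal bins of H3K4me3 promoters by read level, the median log2 fold change went from 0.11 in the lowest bin to -0.06 in the highest, and all DOX libraries were the deeper of their pair. Of 4454 other H3K4me3 promoters within the interquartile range of the members' read level, the median was -0.02 and 6.51% were lower at an adjusted p under 0.05, against -0.11 and 45.9% of 37 members in that range. In the pair with nearly equal depth (shDPPA2+4 replicate 1, 1.05 times) the median of the members was -0.09, with 69 of 73 lower, and that of H3K4me3 promoters was -0.01. The part of depth in the difference was not tested. The count of 32 fell to 0 without the replicate block, without replicate 2 and when counts were split over the promoter window, although the median stayed at -0.11, -0.09 and -0.09, so which members pass depends on the fit. Counts were scaled to the tested regions, and a shift shared by every region would be invisible.

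Related gene groups had medians below 0 but nearer to it. Of 77 mitochondrial ribosomal protein genes tested, 4 were lower and 1 was higher at an adjusted p under 0.05 of any size (median -0.04), led by MRPS18B (log2 fold change -0.18). Of 50 translation factor genes, 10 were lower and 0 higher (median -0.06), led by EIF4B, a cofactor of the eIF4A helicase (-0.20), and EEF1A1, which delivers aminoacyl-tRNA to the ribosome (-0.12). Of 86 ribosome biogenesis genes, 11 were lower and 0 higher (median -0.06), led by NOP58, a core protein of box C/D particles, and WDR75, a factor of the small subunit processome (-0.17 and -0.19). FAU, which encodes a ribosomal protein fused to a ubiquitin-like protein and falls outside the symbol rule, was at -0.10 (adjusted p = 0.0721). Of the paralogs, RPL22L1 (-0.16) and RPL7L1 (-0.13) were lower (adjusted p = 0.0209 and 0.0393), whereas RPL39L was at 0.05 (adjusted p = 0.55). The promoters of RPL10L and RPL3L carried no H3K4me3.

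The third comparison concerned H2AK119ub, which was sparse and uneven over these genes. With H2O it marked 40.6% ± 13.2 (SD, n = 6 libraries) of members, against 68.9% ± 6.32 of H3K4me3 promoters and 51.7% ± 4.86 of all promoters. In related groups the shares were 38.0% ± 12.9 of mitochondrial ribosomal protein genes, 36.8% ± 12.1 of ribosome biogenesis genes and 53.9% ± 9.51 of translation factor genes. By library it marked 38 and 24 of 73 members in shDPPA2 (replicates 1 and 3), 34 and 21 in shDPPA4, and 42 and 19 in shDPPA2+4. The share in members was below that in H3K4me3 promoters in all 6 libraries. Replicate 1 marked more members than replicate 3 in every line. The mean length under peaks was 532 bp ± 240 per member and 1242 bp ± 248 per H3K4me3 promoter.

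Along the promoter, H2AK119ub at members lay mostly to either side of the TSS. With H2O, 8.45% of members were under a peak at the TSS itself, 24.2% at 500 bp downstream and 20.3% at 1000 bp upstream. The same positions of H3K4me3 promoters were covered in 35.8%, 55.5% and 36.2%.

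Members ranged from fully covered to free of the mark. Of 73, 10 were marked in all 6 H2O libraries and 18 in none, against 46.8% and 11.0% of H3K4me3 promoters. The 10, by mean length under peaks, were RPL10A (2417 bp), RPL13 (2225 bp), RPL28 (2212 bp), RPS2 (2159 bp), RPS15 (1932 bp), RPL36 (1746 bp), RPLP1 (1595 bp), RPL23A (1403 bp), RPL38 (1382 bp) and RPL7 (766 bp). RPLP1 is a protein of the acidic stalk that recruits elongation factors, and RPL23A lies at the exit of the peptide tunnel. RPL10A was covered over 2100, 2250.5 and 3001 bp (lowest, median and highest of 6 H2O libraries), RPS2 over 1275, 2101 and 3001 bp and RPL7 over 433, 633 and 1433 bp. RPL13, RPS2 and RPS15 were the only 3 members marked in all 12 libraries.

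In none of the 12 knockdown libraries did 13 members reach 300 bp. They were RPL6, RPL9, RPL11, RPL21, RPL34, RPL37 and RPL37A of the large subunit and RPS14, RPS15A, RPS18, RPS24, RPS29 and RPSA of the small subunit. RPL11 binds MDM2 together with RPL5, RPS14 is the gene whose loss underlies the anemia of 5q- syndrome, and RPSA is related to the laminin receptor. RPL6 alone had a short peak, and the others had 0 bp in each H2O library. RPL5, RPL22, RPS6 and RPS9 were marked in no H2O library and in 1 DOX library each. H3K4me3 promoters were without the mark in all 12 libraries in 8.17% of cases, and members in 17.8%. The share was 26.9% of mitochondrial ribosomal protein genes, 22.1% of ribosome biogenesis genes and 19.6% of translation factor genes.

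The H2AK119ub of members was more frequent at windows of higher CpG content. The median was 41.3 CpG per kb over members and 46.0 over H3K4me3 promoters. It was 57.0 for the 10 members marked in all H2O libraries and 36.0 for the 18 marked in none. In 5 equal bins of H3K4me3 promoters by CpG content, from low to high, the mean share marked with H2O was 20.5%, 25.3%, 49.1%, 73.3% and 80.0% for 13, 27, 18, 10 and 5 members. For the other promoters it was 41.5%, 57.4%, 71.7%, 83.2% and 92.9%. The members thus lay below the other promoters in each of the 5 bins, a description over genes that share their libraries.

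**Figure D3:**
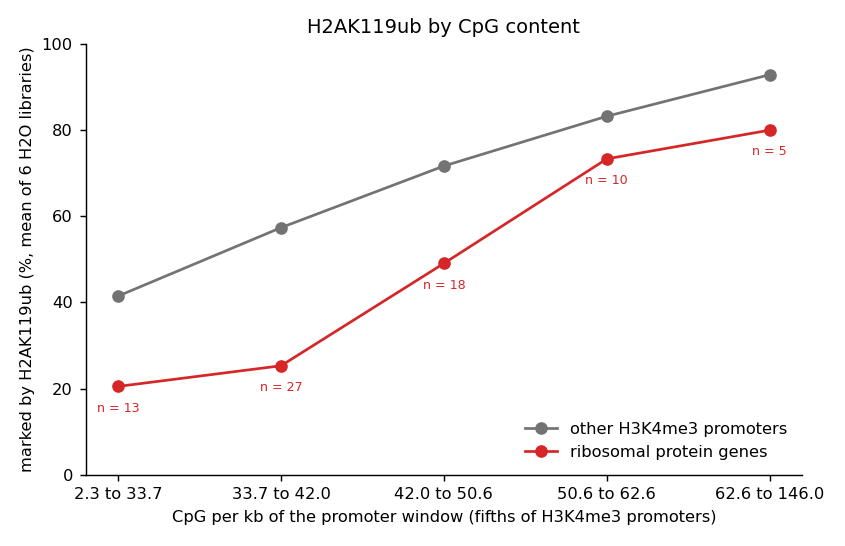
Share of promoters marked by H2AK119ub (y axis, %, mean of 6 H2O libraries) by CpG content (x axis, CpG per kb, in 5 equal bins of H3K4me3 promoters) for ribosomal protein genes (red, with the number of genes) and other H3K4me3 promoters (gray). The red points rise from 20.5% to 80.0% and lie below the gray ones in each bin.

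With DOX, H2AK119ub marked 31.1% ± 19.7 (SD, n = 6) of members. It marked 33 and 7 of 73 in shDPPA2 (replicates 1 and 3), 33 and 8 in shDPPA4, and 40 and 15 in shDPPA2+4. The number was below that of the H2O partner in 6 of 6 pairs, although the groups overlapped widely. The mean difference was -9.59 percentage points, ranging from -23.3 to -1.37. It was -3.65 points in replicate 1 and -15.5 in replicate 3, whose DOX libraries stood apart. Over H3K4me3 promoters it was -13.8 points (5 of 6 pairs lower), with -4.79 in replicate 1 and -22.8 in replicate 3.

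**Figure D4:**
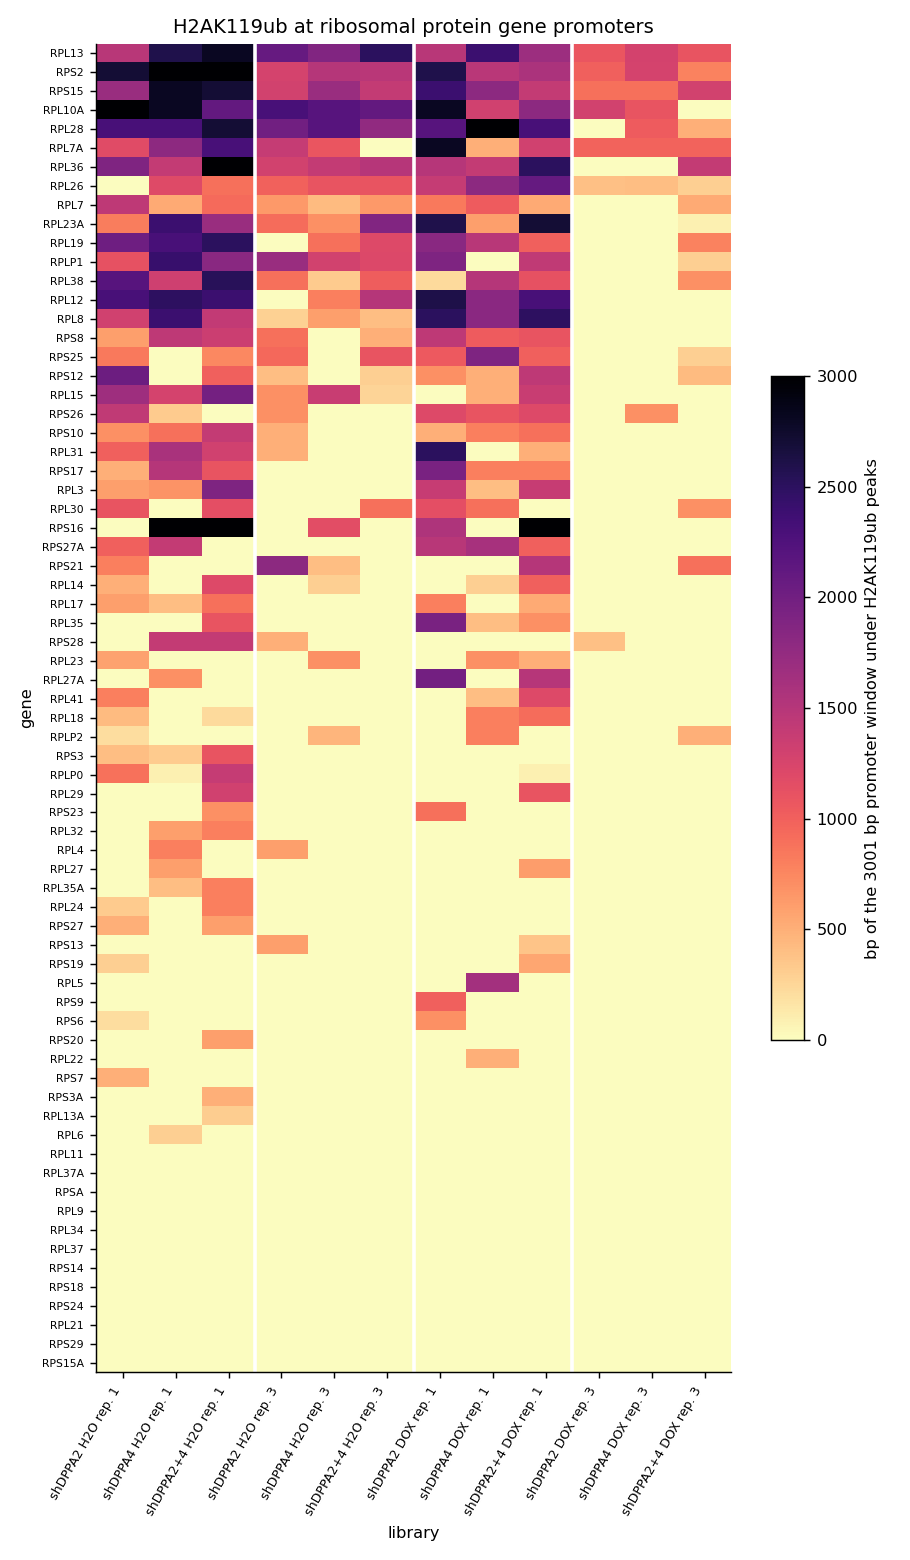
Length under H2AK119ub peaks (color, bp of the 3001 bp window) for 70 of the 73 ribosomal protein genes (rows, ordered by the number of libraries marked and mean length) in 12 libraries of the knockdown lines (columns, in blocks of 3 lines: H2O replicate 1, H2O replicate 3, DOX replicate 1, DOX replicate 3). RPL13, RPS2 and RPS15 are marked throughout, the 12 lowest rows are empty, and the 3 columns at the far right hold few marks.

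Few members lost or gained the mark within a line, where lost means marked in both H2O libraries and no DOX library. In shDPPA2, 3 of 19 members marked in both H2O libraries lost it (15.8%, against 6.34% of 8537 such promoters), namely RPL15, RPL38 and RPS21. RPL15 was covered over 1669 and 700 bp with H2O (replicates 1 and 3) and over 0 bp in both DOX libraries, and RPL38 over 2200 and 900 bp against 223 and 0 bp. In shDPPA4, RPLP1 and RPS16 of 17 lost it (11.8%, against 11.0% of 8765). RPLP1 was covered over 2418 and 1300 bp with H2O and over 0 bp in both DOX libraries. In shDPPA2+4, 0 of 19 lost it (5.08% of 8720 promoters did). RPS21 was the only gain in any line, where gained means marked in no H2O library and in both DOX libraries. It was 1 of 31 members without the mark in shDPPA2+4 with H2O, and 154 of 7779 such promoters gained it. In shDPPA2 and shDPPA4, 0 of 30 and 0 of 35 members gained it, against 276 of 8321 and 70 of 7890 promoters. RPS21 had 800 and 1800 bp in shDPPA2 with H2O and 0 bp with DOX, but 0 bp in shDPPA2+4 with H2O and 1500 and 900 bp with DOX. No member was lost in more than 1 line. With replicate 1 alone, 13 of 38, 13 of 34 and 12 of 42 members counted as lost in shDPPA2, shDPPA4 and shDPPA2+4 (34.2%, 38.2% and 28.6%), against 13.3%, 27.3% and 17.3% of all promoters. With replicate 3 alone they were 17 of 24, 14 of 21 and 7 of 19 (70.8%, 66.7% and 36.8%), against 51.1%, 36.6% and 25.3%.

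Neither test of H2AK119ub called a member. For the length under peaks (limma, 42 members with a mean of at least 150 bp), 0 members passed, where 0.00764% of 13091 promoters were called lower, and 8 had an unadjusted p under 0.05 (19.0%, against 16.0% of all promoters). The median difference was -208 bp for members and -265 bp for all promoters tested. The lowest p-values belonged to RPL10A, at -1034 bp (SE 278, limma adjusted p = 0.244), and RPL38, at -791 bp (SE 238, limma adjusted p = 0.244). For read counts, regions with a peak in every library were available for 8 members, in regions of 4100 to 26200 bp that reach beyond the promoter. None was called, where 0.0% of 4272 promoters were, and 5 had an unadjusted p under 0.05 (20.2% of all promoters did), or 0 without the replicate block (4.24%). DESeq2 called none of the 8. The median log2 fold change was -0.48 over these 8 members and -0.13 over all promoters tested, a set selected by keeping a peak in every library.

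The 8 members with counts were RPS15, RPL13, RPL3, RPS2, RPL10A, RPL38, RPL35 and RPL7A. RPS15 held 432, 579 and 700 CPM (lowest, median and highest of 6 H2O libraries) and 133, 382 and 704 with DOX (log2 fold change -0.66, SE 0.22, edgeR adjusted p = 0.171). RPL13 held 338, 410.5 and 499 with H2O and 118, 312 and 419 with DOX (-0.53, SE 0.17, edgeR adjusted p = 0.171). Both groups overlapped. RPL38, lost at the promoter in shDPPA2, was at 0.19 on the log2 scale over its whole region (SE 0.13, edgeR adjusted p = 0.37). Without replicate 1, leaving only the pairs whose DOX libraries stood apart, 5 of 9 members tested were called lower, where 22.6% of 4744 promoters were, with log2 fold changes of -1.51 at RPS15, -1.07 at RPL13, -1.68 at RPL10A, -1.40 at RPL3 and -1.53 at RPL26. Without replicate 3, 0 were called, and the share of all promoters in that fit is not given here.

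In parental cells, H2AK119ub marked 17 and 11 of 73 members with DMSO (replicates 3 and 4) and 8 and 10 with A-485. The mean shares with DMSO and A-485 were 19.2% and 12.3% of members, against 28.7% and 27.5% of all promoters. Of H3K4me3 promoters, 36.1% and 34.2% were marked. The DMSO library of replicate 3 stood apart, and its peaks overlapped those of another target as much as those of its own. Without it, the counts were 11 with DMSO against 8 and 10 with A-485. The shares of H3K4me3 promoters were then 26.6% with DMSO and 29.7 to 38.7% with A-485. Only RPL36 was marked in all 4 libraries, with 1195 and 1100 bp in DMSO and 600 and 700 bp with A-485.

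The last comparison asked how H3K27ac at these genes responded to A-485. The mark was kept at nearly all members but over a shorter stretch. The A-485 libraries held fewer peak reads than their DMSO partners, 780375 against 2709073 in replicate 2 and 603895 against 5647079 in replicate 4. The part of depth in the marked shares and lengths was not tested. Of 73 members marked in DMSO, 73 (100%) were still marked in replicate 2 and 68 (93.2%) in replicate 4, against 84.9% and 59.7% of H3K4me3 promoters marked in DMSO. The length under peaks went from 2228 to 1292 bp per member in replicate 2 and from 2267 to 1326 bp in replicate 4, so that 58.0% and 58.5% of the covered length remained. H3K4me3 promoters kept 55.5% and 35.1%. Mitochondrial ribosomal protein genes were still marked in 94.8% and 80.5%, translation factor genes in 98.0% and 80.0%, and ribosome biogenesis genes in 89.5% and 73.3%. With 2 libraries per treatment and both lists of replicate 4 called against the other treatment's input, no test was made of these shares.

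The remaining H3K27ac lay just downstream of the start. With A-485, 86.3% of members were under a peak at 500 bp downstream and 54.1% at the TSS, against 100% and 93.2% in DMSO. At 1000 bp downstream the shares were 31.5% and 80.1%. For H3K4me3 promoters at 500 bp downstream they were 42.6% and 79.6%. The 5 members with 0 bp in the A-485 library of replicate 4 included RPL6, RPL8, RPL14 and RPS29. All 5 were marked in the A-485 library of replicate 2.

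**Figure D5:**
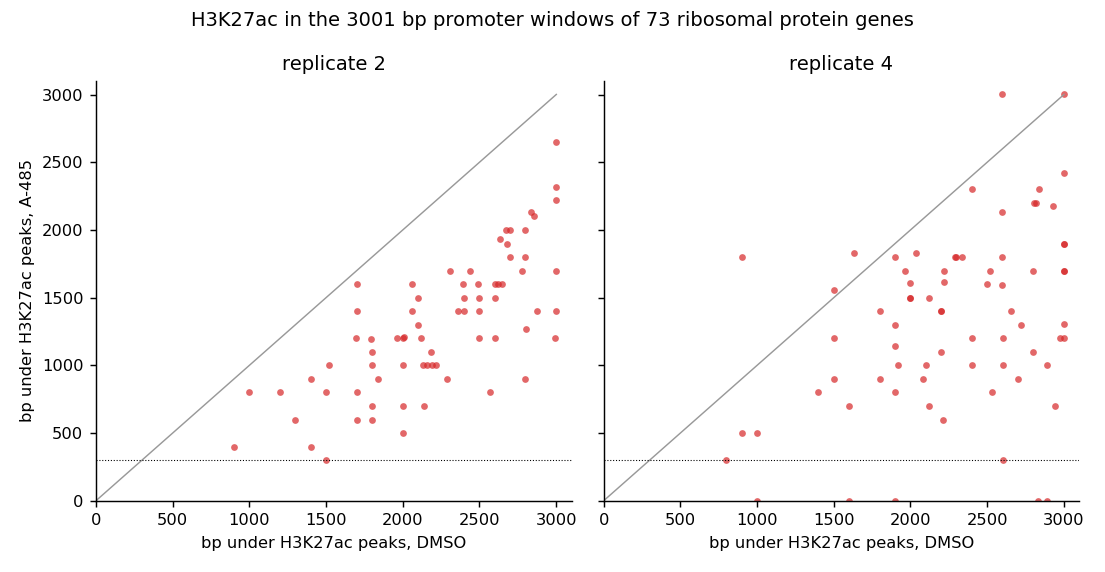
Length under H3K27ac peaks in the promoter window with A-485 (y axis, bp) against DMSO (x axis, bp) for 73 ribosomal protein genes in replicates 2 and 4. Each point is 1 gene, the gray line marks equal length and the dotted line 300 bp. In replicate 2, 73 of 73 points lie below the gray line, and in replicate 4, 68 of 73, with 5 at 0 bp.

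Read counts within the remaining H3K27ac regions gave no call. Of 68 members tested, edgeR called 0 lower, where 0.0% of 7533 promoters were, and DESeq2 called 0. At an unadjusted p under 0.05 there were 2 (2.94%, against 3.37% of all promoters). The median log2 fold change was -0.05 for members and -0.07 for all promoters tested, but the pairs differed in sign. In replicate 2 the median ratio was -0.16 for members (48 of 68 lower) and 0.01 for all promoters, and in replicate 4 it was 0.13 (27 of 68 lower) and -0.13. RPL29 had the lowest p, with 102 and 219 CPM in DMSO (replicates 2 and 4) and 51.9 and 30.6 with A-485 (log2 fold change -1.83, SE 0.52, edgeR adjusted p = 0.627). Both A-485 libraries lay below both DMSO libraries at this gene, as they did at RPL28 and other members. RPS26 and RPL22 were among those with the reverse order, and the share over all promoters is not given here.

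RPL28 was at -0.88 on the log2 scale, whereas RPS26, RPL4 and RPL22, next to it by p-value, were at 0.68, 0.69 and 0.57 (edgeR adjusted p from 0.719 to 0.868 for these 4). RPL5, RPS28, RPS10 and RPL37A moved least, between -0.02 and 0.04, with SE of 0.38 to 0.43. The test requires a peak in every library and scales counts to the tested regions, so it compares what remained of the mark with what remained elsewhere. With the called length as an offset, which compares density inside peaks, 63 of 68 members were called higher, as were 6562 of 7533 promoters. That offset moved the median of all tested regions to 0.94 on the log2 scale and that of members to 0.93. Fits with a library left out held a single library in a group, and their calls are not given here.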

How the data were processed

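ChIP-Rx-seq libraries were made by the authors with mouse chromatin added as a reference, whose reads were not used here. The submitters' processing notes list BWA 0.7.13, Trim Galore 0.6.6, Picard 2.6.0, SAMtools 1.9 and deepTools 3.5.0, with hg38 as the human build, and per the study's methods domains were called with EPIC2 in each histone mark library. For SUZ12 the methods name MACS2, but its deposited list has the columns of EPIC2. The deposited ChIP and input columns hold raw read counts per peak. The deposited log2 column compares ChIP with input, the deposited p-value and FDR columns are those of the caller, and the deposited score column was not used. These authors' values served only as a filter (FDR under 0.05, log2 fold over 1). No blacklist was applied here.

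Promoter length under peaks, domains and merged regions were computed from the kept peaks. Regions that held a peak in each library and averaged 10 reads or more were tested with edgeR 4.0.16 (TMM, quasi-likelihood), length with limma 3.58.1, and DESeq2 1.42.0 was the alternative tool. Benjamini-Hochberg adjustment ran over everything tested. Contrasts were DOX minus H2O over 3 lines and in each, and A-485 minus DMSO. The study made its replicates in batches, so the replicate number was a block. Deviations of same-numbered libraries from group means correlated at 0.330 to 0.509 (H3K4me3), 0.240 to 0.708 (H2AK119ub) and 0.409 (H3K27ac). Where nothing shows separate cultures, a p-value covers only the spread among the libraries. Fits were tested on simulated data. Sequences came from the hg38 genome at GENCODE 44 starts.

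Members and gene lists were chosen with earlier results of these data known. The genes named were, for H2AK119ub, those marked in all H2O or no library and those lost or gained; for H3K4me3, the 3 widest, narrowest, densest and least dense domains; for H3K27ac, the 6 with the lowest p, the 4 largest falls and the 4 smallest changes; for H3K27me3 and SUZ12, those marked in at least 2 libraries or by SUZ12. The H3K4me3 genes named for their p-value or for groups without overlap were chosen after their values were seen, as were the members named for marks in 12 libraries, in a single DOX library or in parental cells. The values of a few genes that this rule would name are not reported here.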

Additional observations from a re-analysis of the deposited data

Results flagged for a closer look

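The share of members marked by H3K27me3 in shDPPA4 H2O replicate 1, 4.11%, lay far from the other 5 H2O libraries, which ranged from 0 to 1.37%. It rests on 3 promoters, RPS12, RPL38 and RPL36, the last at the minimum of 300 bp. This library held 10545826 H3K27me3 peak reads, against 1085365 to 6757587 in the other 5, and the part of depth was not tested. Chance flags about 1 in 20 groups tested in this way, and 16 groups were tested.

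At RPS21, every pair of shDPPA2+4 had more H2AK119ub with DOX (a mean difference of 1200 bp) and every pair of shDPPA2 had less. This difference between the lines was not tested.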

How the results depend on the processing

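No H3K4me3 member was called over the 3 lines or in a single line under any alternative, with or without the replicate block. The count of 32 members lower at an adjusted p under 0.05 of any size, a rule chosen after seeing the data, was 10 with DESeq2, 0 with no replicate block, 20 without TMM, 14 with regions that had a peak in at least 0.5 of the libraries, 0 with counts split over the window, 2 with the called length as offset and 0 to 39 with libraries left out (0 without replicate 2, 8 without shDPPA4 H2O replicate 2). The shares of all promoters lower under these alternatives are not given here, so these counts have no background to be read against. The median of the members stayed below 0 in each, so the direction held while the calls did not. Dropping the block, which pairs libraries of the same number, left the other counts of called members at 0, lowered the counts at an unadjusted p and took the promoters called for H3K4me3 over 3 lines from 9 to 0.

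H2AK119ub read counts gave 0 to 5 calls with libraries left out (5 without replicate 1, where 22.6% of 4744 promoters were called lower). Length under peaks gave 0 calls throughout. Losses in shDPPA2 were 1 with peaks of log2 fold over 2, 1 with all deposited peaks, 0 with 1500 bp as the minimum and 0 in a window of 500 bp to each side, and 13 to 17 with 1 replicate. Losses in shDPPA4 were 0 with all deposited peaks and 13 to 14 with 1 replicate. In shDPPA2+4 they were 3 with the higher fold, 1 in the shorter window and 7 to 12 with 1 replicate. The H2AK119ub share was 17.1% (higher fold), 12.6% (1500 bp) and 23.5% (shorter window) with H2O, and 13.2%, 8.22% and 16.9% with DOX. With 1 replicate it was 29.2 to 52.1% and 13.7 to 48.4%.

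For H3K27ac, calls with libraries left out are not given, as a single library then remained in a group. H3K27ac had a median over members of -0.25 with regions marked in at least 0.5 of the libraries. It was 0.12 with split counts and 0.93 with the called length as offset. The H3K27ac calls thus rest on the fits with all libraries. The H3K27ac share was 97.3% (higher fold) and 91.8% (1500 bp) in DMSO, and 85.6% and 41.1% with A-485, or 93.2 to 100% with 1 replicate. The SUZ12 share was 0% with 1500 bp and 0% in the shorter window. H3K27me3 shares with 1 replicate were 0 to 1.83% with H2O and 0 to 1.37% with DOX. The cause of these shifts was not tested. Regions had to hold a peak in every library. Members whose H2AK119ub or H3K27ac region lacked a peak in any library were not tested.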
